A study of Mus musculus with 4 samples.

Results

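DHX9 peaks that lie in a long noncoding RNA gene and in no other annotated gene are described here. They were taken from the 1 deposited list of 43106 peaks as those on autosomes whose midpoint falls in the span of exactly 1 gene of the RefSeq table (GRCm38.p6, mm10), that gene being of the kind lncRNA. Airn and Mir99ahg, which held 123 and 39 such peaks, were left out. This gave 628 peaks (1.46% of the list) in 103 genes. Of the 2546 autosomal peaks in any lncRNA gene, 1686 also lay in a protein-coding gene and are not among them.

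The list came from FLASH, a crosslinking and immunoprecipitation assay, in neural progenitor cells derived from the male mouse embryonic stem cell line WT26 (strain C57BL/6x129sV) and kept in medium with EGF and FGF2. There were 2 groups of 2 replicate libraries, one pulled down with a rabbit antibody against DHX9 and one with control rabbit IgG. Both groups came from cells of this 1 line, crosslinked with ultraviolet light, and the labels name no other treatment. A single peak list came with the 4 libraries, and how the IgG libraries entered it is not stated. No value per library, depth, replicate spread or test was therefore available, and every number below counts or measures peaks of that list. Expression was not measured, so the cell label was not checked against markers, and a gene without a peak may be silent, unbound or too thinly sequenced.

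DHX9 is an RNA helicase that opens double-stranded RNA, and it acts mainly in the nucleus. Long noncoding RNAs are transcribed and often spliced like messenger RNAs but encode no known protein. Many are kept in the nucleus, some start next to a protein-coding gene and run the other way, and some serve as precursors from which microRNAs or small nucleolar RNAs are cut. MicroRNA precursors fold into hairpins, which makes them double-stranded RNA of the kind helicases can act on.

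A few of the 628 peaks shared bases with microRNA hairpins, and 5 edges of these peaks fell inside a hairpin. A peak therefore need not cover the mature microRNA: that of Mir22hg ended at the first base of miR-22-5p. Mature microRNAs of those hairpins are shown first. The sequence of let-7b-5p, whose hairpin had its nearest peak 197 bases away, is added for comparison. Capitals mark the seed (bases 2 to 8, which pair with target RNAs) and not the bases inside a peak. Sequences are those of RefSeq for GRCm38.p6.
miR-125b-5p (Mir100hg): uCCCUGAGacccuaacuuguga
let-7c-5p (Lncppara): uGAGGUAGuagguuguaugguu
let-7b-5p (Lncppara): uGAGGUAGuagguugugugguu
miR-9-5p (C130071C03Rik and Gm3764): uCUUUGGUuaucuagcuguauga
miR-22-5p (Mir22hg): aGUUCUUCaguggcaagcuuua
miR-675-3p (H19): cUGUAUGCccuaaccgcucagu
The let-7c and let-7b sequences share 1 seed, and miR-9-5p is cut from hairpins in both of the genes named with it. The other sequences shown have seeds of their own.

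Some peaks also reached the stretch of 300 bases around a gene start (250 before to 50 after) for which the reference gives sequence. The 3 windows with the most peak bases, picked after these values were seen, are printed on the strand of the peak, with the bases inside any peak on that strand in capitals.
Ino80dos, chr1:63114490-63114789, plus strand: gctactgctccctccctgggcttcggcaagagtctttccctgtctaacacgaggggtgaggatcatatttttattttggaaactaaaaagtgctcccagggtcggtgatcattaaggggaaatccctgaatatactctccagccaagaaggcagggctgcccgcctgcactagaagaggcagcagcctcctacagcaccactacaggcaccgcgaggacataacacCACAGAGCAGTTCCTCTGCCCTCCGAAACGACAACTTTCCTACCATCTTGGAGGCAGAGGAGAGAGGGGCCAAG
Sp3os, chr2:72980397-72980696, plus strand, opposite to Sp3: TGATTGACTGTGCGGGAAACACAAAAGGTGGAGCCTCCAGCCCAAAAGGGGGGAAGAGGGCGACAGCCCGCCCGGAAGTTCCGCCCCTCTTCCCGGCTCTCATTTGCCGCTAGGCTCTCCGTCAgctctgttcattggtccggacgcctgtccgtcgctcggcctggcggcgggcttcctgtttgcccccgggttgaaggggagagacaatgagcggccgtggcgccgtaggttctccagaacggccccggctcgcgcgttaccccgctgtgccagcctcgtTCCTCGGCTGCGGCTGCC
Gm16008, chr4:156023775-156024074, minus strand: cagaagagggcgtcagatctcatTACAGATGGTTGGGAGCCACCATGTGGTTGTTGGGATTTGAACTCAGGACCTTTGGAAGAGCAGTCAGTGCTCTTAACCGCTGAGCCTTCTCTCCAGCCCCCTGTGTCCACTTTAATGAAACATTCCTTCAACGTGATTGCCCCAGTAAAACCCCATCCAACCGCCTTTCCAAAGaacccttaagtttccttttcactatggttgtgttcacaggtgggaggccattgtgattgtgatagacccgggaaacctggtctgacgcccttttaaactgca
In Ino80dos, 74 of the 150 bases of the first peak lay in the window. In Sp3os the window is that of Sp3, a transcription factor gene on the other strand, and 124 of the 140 bases of one peak lay in it, with the first 18 bases of the next peak of Sp3os at its other edge. The Gm16008 window held a whole peak of 175 bases. The GC content of the Gm16008 window was 49.3% and that of the Sp3 window 66.7%, and the median over 32851 windows was 52.7%. The Gm16008 peak contains the reverse complement of TTAAGAGCA, 9 letters that occur in the mouse B2 repeat, a short interspersed element. On either strand these letters were in 181 of the 32851 windows (0.551%) and in 1 of the 7 windows that shared bases with a peak described here. They were searched for after the sequence had been read, and repeats were not annotated here, so the match is a description only.

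Few lncRNA genes held such a peak. Of 9163 autosomal lncRNA genes with some stretch in no other gene, 103 did (1.12%), 35 had at least 3 (0.382%) and 12 had at least 10 (0.131%). For protein-coding genes counted the same way the shares were 19.1% (3767 of 19730), 11.6% and 4.86%. Per Mb of span in no other gene there were 3.85 peaks in lncRNA genes and 40.8 in protein-coding genes. Among lncRNA genes with over 50 kb of such span, 3.06% held a peak, against 0.602% of those with up to 1 kb. In peaks per Mb the order was different: 12.9 in the shortest class, which held only 4 peaks, 1.89 from 20 to 50 kb and 4.93 above 50 kb. No expression value was at hand to set beside these shares.

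The peaks were concentrated in a few genes. The first 6 genes held 324 of the 628 peaks (51.6%) and the 12 genes with at least 10 held 424 (67.5%), while 44 genes held 1 peak and 24 held 2. The 11 genes with the most peaks held 65.9% of them, and the 377 protein-coding genes with the most, a like share of genes, held 54.6% of theirs. Genes known only as predictions (names of the form Gm or LOC with digits) were 7394 of those considered, and 42 of them (0.568%) had a peak. Genes with RIKEN clone names had one in 33 of 1415 (2.33%), and the remaining genes, whose symbols have neither form, in 28 of 354 (7.91%).

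**Figure D1:**
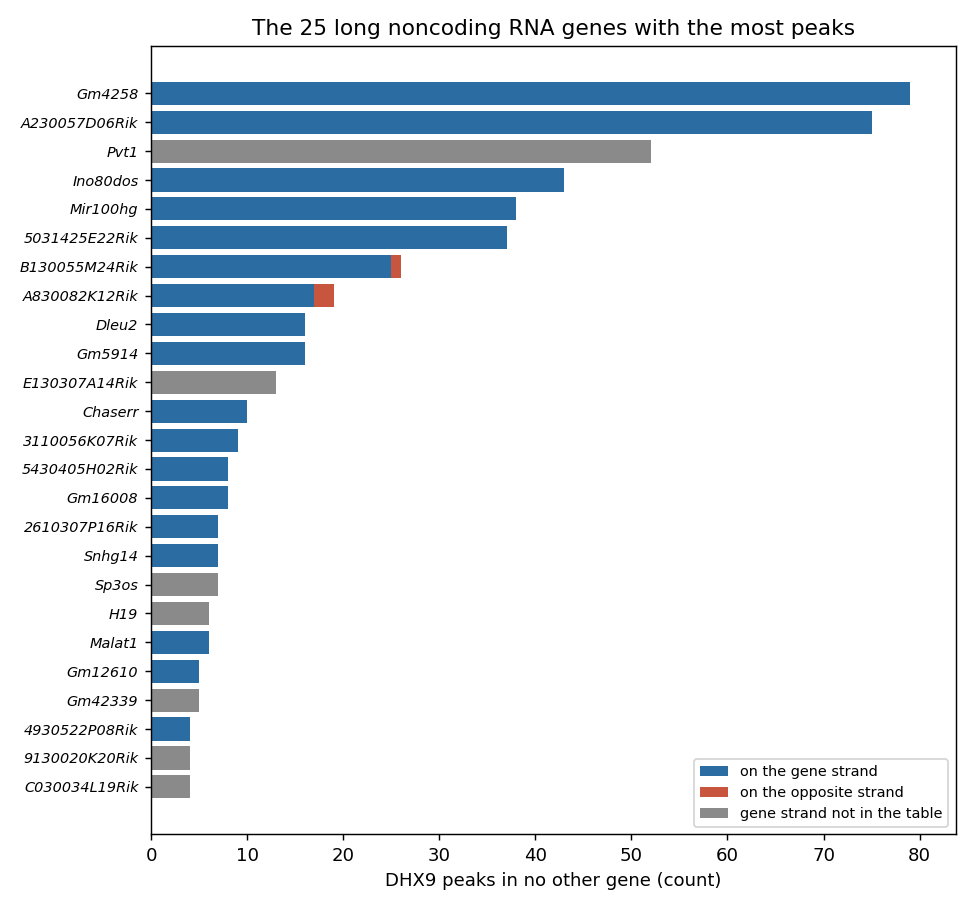
Number of DHX9 peaks in no other gene (horizontal axis, count) for the 25 lncRNA genes with the most, coloured by whether peaks lie on the strand of the gene. Counts fall from 79 in Gm4258 to 4, and only B130055M24Rik (1 peak) and A830082K12Rik (2 peaks) have red parts, which mark peaks on the opposite strand.

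The gene with the most peaks was Gm4258, a predicted gene of 64.56 kb (chromosome 1, 137898464 to 137963020, plus strand) that overlaps no other gene. All its 79 peaks were on the gene strand, at 1.22 per kb, and covered 20.2% of the span. They formed 2 runs separated by 12.2 kb, the larger with 56 peaks over 27.4 kb in the downstream part. The nearest protein-coding gene with a peak of its own on that strand was Dennd1b, at least 1000 kb away.

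A230057D06Rik followed with 75 peaks on its strand (chromosome 7, 61705850 to 61927574, minus strand). Its 221.7 kb contain 7 hairpins of the miR-344 family. The peaks were thinner, at 0.34 per kb, and 53 of the 75 lay in the first of 3 equal parts of the gene. The last of them along the transcript lay at 70.0% of the span, and 4 of the hairpins lay farther on, from 29909 to 46006 bases away from any peak on their strand. Of the other 3 hairpins, Mir344c had a peak centred on it, which is therefore not among the 628, Mir344 had one at 17 bases and Mir344b one at 509 bases.

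Pvt1, which lies next to the proto-oncogene Myc, held 52 peaks, all on the plus strand (chromosome 15, 62037986 to 62260215). Counted from the plus-strand end, 41 lay in the first of 3 equal parts, and the largest run held 31 peaks between 6.89 and 41.3 kb. E130307A14Rik also had 11 of its 13 minus-strand peaks in the first part and 10 of the 13 within 4.72 kb. From 69.4% of its span on, however, it is shared with other genes, so no peak there could count. The reference used here gives no strand for Pvt1 or E130307A14Rik, so the upstream end is that of the strand with the peaks. In 3110056K07Rik all 9 peaks lay within 3.5 kb, in Gm42339 all 5 within 2.89 kb and in C030034L19Rik all 4 within 8.85 kb, whereas the 7 peaks of 2610307P16Rik were spread over 343 kb.

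Start-side peaks were also seen in Ino80dos, along most of the stretch that is its own, and in 5031425E22Rik. Ino80dos, named for its place opposite to the chromatin remodeller gene Ino80d, held 43 peaks on its strand (chromosome 1, 63114471 to 63158295). They ran as a single dense series from 0.319 to 26.4 kb, at 1.48 per kb of the 29.12 kb that are its own, beginning with the peak printed above. The rest of its span is shared with other genes and could not contribute. Its 26 peaks in the first of 3 equal parts and 17 in the middle one therefore do not show a gathering at the start. In 5031425E22Rik (chromosome 5, 23382302 to 23434353, minus strand), 36 of the 37 peaks lay in the first of 3 equal parts, and all lay within 25.0 kb of the start.

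The reverse was seen in Mir100hg, the host transcript of miR-100, let-7a-2 and miR-125b-1 (chromosome 9, 41376526 to 41615185, plus strand). Of its 38 peaks, 34 lay in the last of 3 equal parts, and 31 peaks made a run of 12.3 kb that began 204 kb from the start. The Mir125b-1 hairpin lies in this run, with 8 peaks within 1 kb, whereas Mir100 and Mirlet7a-2 were 27181 and 21874 bases from any peak on their strand. A830082K12Rik, which starts 856 bases from the start of the transcription factor gene Nr2f1 on the other strand, had 14 of 17 peaks on its strand within 3.75 kb near its end. In Dleu2, the host of Mir16-1, 15 of 16 peaks lay within 9.07 kb, and the nearest to that hairpin was 629 bases away.

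**Figure D2:**
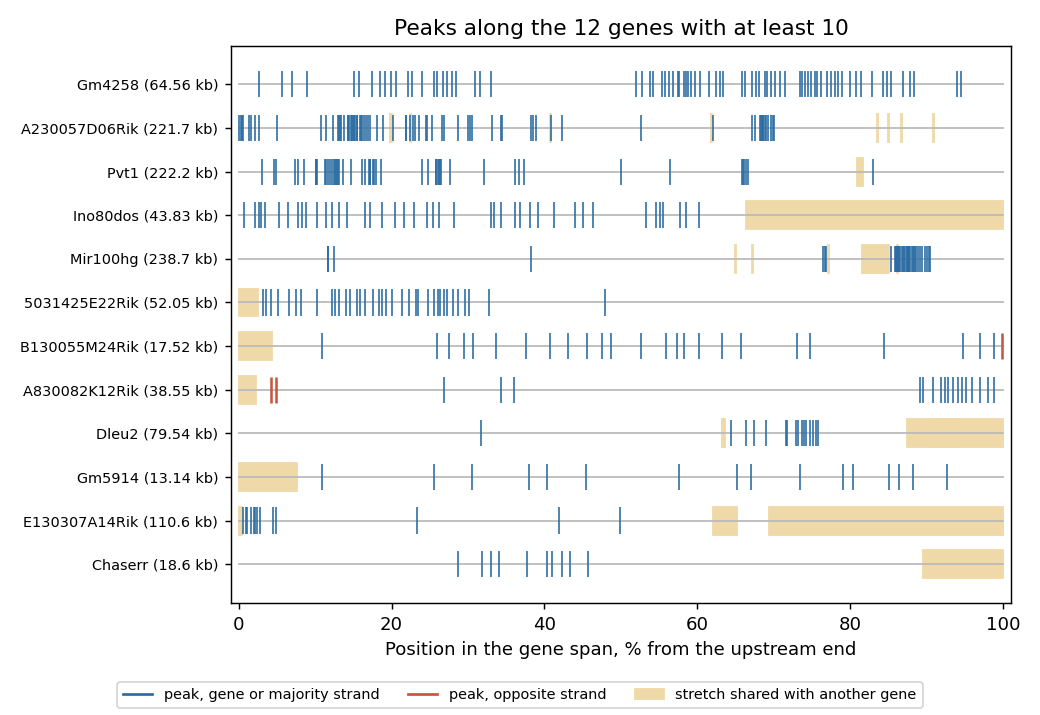
Peaks (ticks) along the 12 genes with at least 10, as percent of each gene span from its upstream end; red ticks lie on the opposite strand and shaded stretches are shared with another gene, where no peak can count. The ticks gather at the left in Pvt1 and 5031425E22Rik, at the right in Mir100hg and A830082K12Rik, and run along the whole gene in Gm4258, Gm5914 and B130055M24Rik.

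Over all genes, 284 peaks (47.1%) lay in the first of 3 equal parts of the span, 151 (25.0%) in the middle part and 168 (27.9%) in the last, leaving out opposite-strand peaks. Without the 12 genes with at least 10 peaks, the shares were 42.9%, 32.4% and 24.7%. Stretches shared with other genes are spread unevenly over the parts, and this was not corrected for.

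In a pair of well-known genes the peaks covered most of the gene. H19, an imprinted RNA expressed from the maternal copy, had 6 minus-strand peaks in 2.617 kb (chromosome 7, 142575530 to 142578146), the highest density among genes with at least 3 peaks (2.37 per kb), and they covered 63.5% of its own bases. Malat1, an abundant RNA of nuclear speckles (chromosome 19, 5795690 to 5802672), had 6 peaks on its strand that covered 51.8%. Its peaks were 341 to 798 bases long with a median of 573, against a median of 155 for the 628 peaks. After H19, the densest genes were 4930522P08Rik with 4 peaks (1.89 per kb), Gm19426 with 4 (1.79), B130055M24Rik with 26 (1.55), Ino80dos, Gm5914 with 16 (1.32), Gas5 with 3 (1.27), Gm4258 and Lncppara with 4 (1.12), closed by 5430405H02Rik with 8 (1.08).

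**Figure D3:**
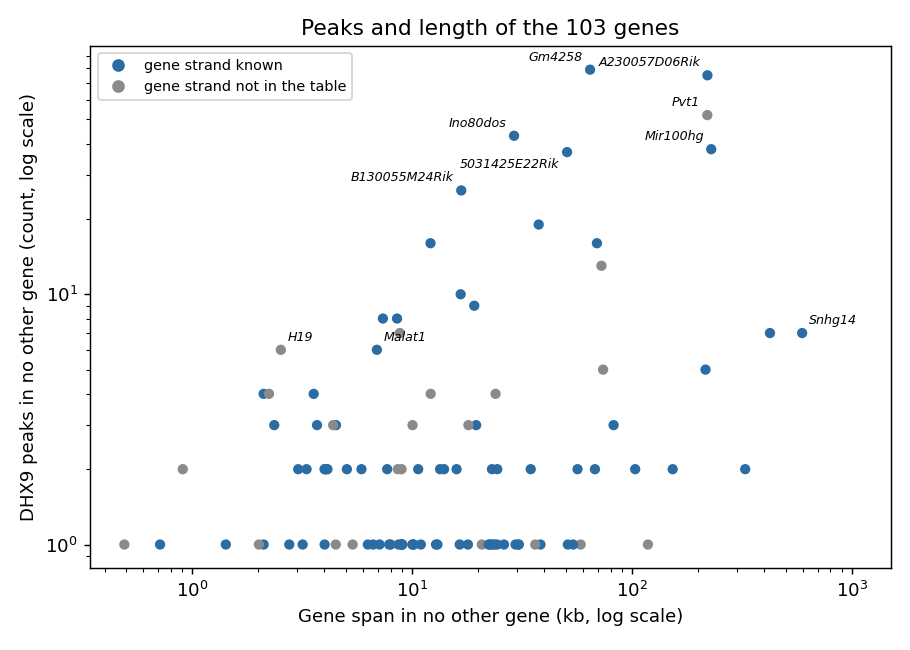
Number of peaks in no other gene against the length of gene span in no other gene (both log scales), 1 point for each of the 103 genes. Gene length alone does not order the counts: H19 and Malat1 reach 6 peaks with under 7 kb, Gm4258 reaches 79 with 64.56 kb, and Snhg14 has 7 with 594.7 kb.

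The 3 lists of known genes, chosen with earlier results of these data known, were read against the background of 1.12%. Of 32 well-studied lncRNA genes with a stretch of their own, 10 (31.2%) held a peak. Besides Pvt1, Dleu2, H19 and Malat1 these were Chaserr (10), Gas5 (3), Mir22hg (2), and Neat1, Meg3 and Tug1 with 1 each. Kcnq1ot1, whose 44 peaks all lie in another gene too, had none of its own by the rule. Of 20 neural lncRNA genes, 4 (20%) held one, namely Mir100hg (38), Snhg14 (7), Neat1 and Pantr1 (1 each), while Miat, Rmst and Sox2ot had 0. Of 20 host genes of small nucleolar RNAs, 3 (15.0%) did, Gas5, Snhg15 (2) and Snhg14, although 8 had a peak when those on the small RNAs or other genes were counted. Expression of these genes was not measured here.

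Chaserr is transcribed just upstream of the chromatin remodeller gene Chd2, whose output it is known to restrain in mouse. Its 10 peaks fell in 3.31 kb (chromosome 7, 73549813 to 73553120), 8.15 to 11.3 kb before Chd2, which itself held 42 peaks on that strand. Snhg14, a very long imprinted transcript that runs opposite to Ube3a, had its 7 peaks within 3.82 kb of a span of 1177 kb. In Neat1, the RNA scaffold of paraspeckles, the single peak was 374 bases long. Gm12610, listed with the synonym ANRIL and starting 561 bases from a start of Cdkn2a on the other strand, had 5 peaks.

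MicroRNA hairpins inside the genes with peaks numbered 23, and 8 (34.8%) shared bases with a peak on their strand. Among all 919 autosomal hairpins the share was 41 (4.46%). Among the 137 inside a lncRNA gene other than the left-out Airn and Mir99ahg it was 9 (6.57%). The first share was bound to be higher, because its genes were taken for having peaks. Some peaks began or ended inside the hairpin. In Mir22hg the peak ended at the first base of miR-22-5p, and in Lncppara, the let-7b host, it ended 1 base past the first base of let-7c-5p. In C130071C03Rik the peak ended 1 base past miR-9-5p and in Mir100hg 4 bases past miR-125b-5p. In H19, where the peak is on the minus strand, it began inside the hairpin, 3 bases before miR-675-3p. Of these 5 peak edges, 4 were within 3 bases of an end of a mature microRNA. Over all autosomal hairpins 19 of 39 peak ends (48.7%) were, while such positions made up 28.2% of a hairpin on average. The hairpin genes and this reading of peak edges were chosen after their values were seen, and the resolution of the caller's peak edges is unknown. The longest of the 628 peaks, of 811 bases, lay in Gm3764 and held both Mir9-1 and Mir3093.

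Peaks lay mostly on the strand of their gene, at a lower share than in protein-coding genes, a difference that was not tested. The strand was known for 81 of the 103 genes, with 510 peaks, of which 486 (95.3%; exact binomial 95% interval 93.1 to 97.0%) were on it. The interval covers counting only and takes peaks of 1 gene as independent, which they are not. Without the 10 genes with the most peaks, an alternative chosen after seeing the data, 87.0% were on it. In protein-coding genes 29647 of 29784 peaks (99.5%) were on the gene strand. Genes with no peak on their own strand were 15 of 81 lncRNA genes (18.5%) and 33 of 3025 protein-coding genes (1.09%). For those 15, the lncRNA that the midpoint falls in is not the RNA strand that carried the peak.

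The 24 opposite-strand peaks were in 19 genes, 11 of which held a single peak. They had a median length of 106.5 bases (30 to 497), and 12 of them were under 100 bases. Peaks on the gene strand had a median of 153 bases, with 38 of 486 (7.82%) under 100. A pair of opposite-strand peaks, in 4930557F10Rik and Gm39918, shared bases with a transfer RNA gene, and another, in Gm5922, with the ribosomal protein gene Rpsa. Both opposite-strand peaks of A230056P14Rik lay 0.222 and 0.92 kb past the end of Nipa1, which held 4 peaks on that strand. A830082K12Rik had 2 near its start, on the strand of Nr2f1, and B130055M24Rik 1 at its far end. Nr2f1 itself held no peak on that strand: for those of A830082K12Rik the nearest protein-coding gene with any was Slf1, at least 1064157 bases away. In all, 7 of the 24 (29.2%) lay within 10 kb of a protein-coding gene with any peak on their strand. For peaks on the gene strand it was 80 of 486 (16.5%). A stricter definition, added after the data were seen, required the neighbour to hold a peak in no other gene. A neighbour of known strand also had to lie on the strand of the peak. By this definition the counts were 4 of the 24 (16.7%) and 26 of the 486 (5.35%). What the other opposite-strand peaks belong to was not tested. These genes were named after their values were seen.

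**Figure D4:**
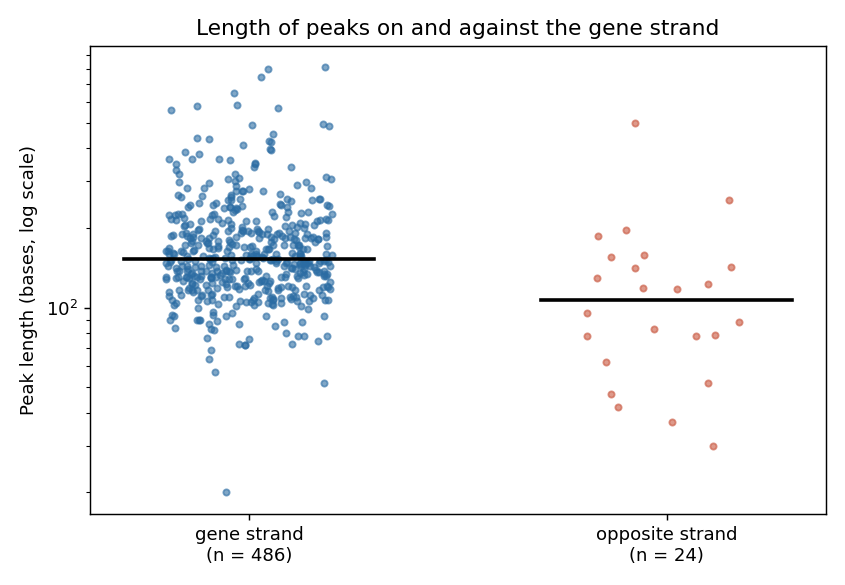
Length of each peak (bases, log scale) for peaks on the strand of their gene and on the opposite strand, with the median as a bar (153 and 106.5 bases). The opposite-strand points reach from 30 to 497 bases, and the ranges overlap.

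Most of the peaks were far from other bound genes. A protein-coding gene with a peak on the same strand lay over 10 kb away for 83.3% of the 628 peaks. Some of these neighbours held only peaks that they share with the lncRNA gene itself. A definition added after the data were seen required a neighbour to hold a peak in no other gene. A neighbour of known strand also had to lie on the strand of the peak. By this definition 591 peaks (94.1%) were over 10 kb away and 410 (65.3%) over 100 kb away, with a median of 496 kb. A peak counted as far in this way can still adjoin a gene with peaks that did not meet the definition. Both peaks of Gm5922 lay 6 and 391 bases past Rpsa but counted as 801 kb from Ctnnb1. The opposite-strand peak of B130055M24Rik, 454 bases from Prr14, counted as 233 kb from Septin1. The 37 nearer peaks were in 10 genes, 8 past the end of a neighbour that met the definition and 29 before its start. The latter included peaks of B130055M24Rik, from 0.636 kb before Prr14, and of Chaserr. All 4 peaks of 4930522P08Rik were 0.98 to 1.94 kb before Kxd1, and those of 9130020K20Rik were 1.37 to 7.75 kb past Hnrnpr, a gene of an RNA-binding protein.

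Starts close to a protein-coding start were common among the genes with peaks. In 22 of 81 (27.2%) the upstream end of the gene was within 1 kb of a protein-coding start on the other strand, compared with 14.4% of all 6957 autosomal lncRNA genes of known strand with a stretch of their own. These 22 genes held 97 peaks. They included 5430405H02Rik, 177 bases from Rab5if, Gas5, 248 bases from Zbtb37, and Gm5914, 936 bases from Ctcf, the gene of a chromatin insulator protein. No test was made of this difference. The reference does not list starts for all protein-coding genes: of the 3767 with peaks, 3025 had a strand and start there. Both shares may therefore be too low. For Ino80dos, named for its place opposite to Ino80d, the nearest listed start on the other strand was that of Gpr1, 96245 bases away.

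In length and median spacing the peaks were close to those in protein-coding genes. The median length was 155 bases (25th to 75th percentile 123 to 203.25, range 20 to 811) against 153 (122 to 201) for 37809 peaks in exactly 1 protein-coding gene. Neighbouring peaks of a gene and strand were 470 bases apart at the median (520 distances) against 488 (34010 distances). The longer distances were shorter than in protein-coding genes, with a 75th percentile of 978.5 against 1207 bases and a 90th percentile of 2698.6 against 5140.5 bases, a difference that was not tested. Distances above 10 kb made up 5.0% and 6.22%. A peak with no other on its strand within 10 kb was found 60 times (9.55%) among the 628 and in 5.43% of the peaks in protein-coding genes.

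**Figure D5:**
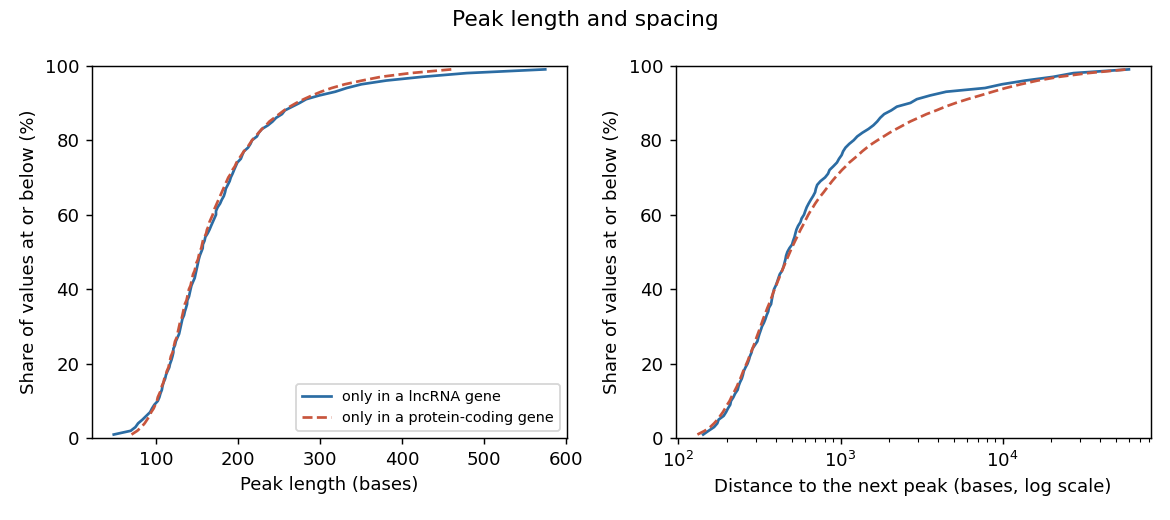
Cumulative share of values (percent) for peak length (left, bases) and for the distance to the next peak of the gene and strand (right, bases, log scale), in lncRNA genes (solid) and protein-coding genes (dashed), from percentile 1 to 99. The length curves nearly coincide (medians 155 and 153 bases); the spacing curves start together (medians 470 and 488 bases) and part above, reaching 2698.6 and 5140.5 bases at percentile 90.

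The midpoint rule left 15 peaks that share bases with a further gene that does not hold their midpoint. These were 6 with a microRNA gene, 4 with a transfer RNA gene, 2 with a small guide RNA gene (both in Gm41774), 2 with a protein-coding gene and 1 with a small nuclear RNA gene (in Gm16008). For these, the reads under the peak cannot be assigned to the lncRNA alone.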

How the data were processed

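The authors deposited 1 list of peaks for the 4 libraries; per the file itself it was made with PEAKachu and holds positions (1-based, with strand) and no score. Bowtie2 (2.2.6) and the builds mm10 and hg19 are listed per the submitters' processing notes; mm10 was taken for these mouse peaks. Caller settings, threshold and treatment of multiply placed reads are not given in the sources used here, so peaks in repeats and paralogs are uncertain. Depth is unknown.

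Peaks were assigned by midpoint to gene spans of the RefSeq table GRCm38.p6 in Python 3.11.15 with pandas 2.3.3. Gene strands and start sites came from the RefSeq promoter table; overlapping windows of opposite strands were reverse complements in 1788 of 1788 cases. The span in no other gene was counted for each gene. Assignment was tested on simulated data. With no value per library, no test was made. The text names the 25 genes richest in peaks, the 10 densest with at least 3, and members of 3 lists with a peak; the nearest bound neighbour of each was found, and some are printed. Members and lists were chosen with earlier results of these data known. Alternatives are given in the closing section.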

Additional observations from a re-analysis of the deposited data

Results flagged for a closer look

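Peaks only in lncRNA genes were also present outside the autosomes, which the report leaves out; they entered only the count over all chromosomes, 637 peaks in 109 genes. Outside the autosomes there were 9 peaks in 6 genes. C430049B03Rik on the X chromosome held 3, 3010001F23Rik 2, and Ftx, a noncoding gene of the X-inactivation centre, 1.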

How the results depend on the processing

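Of 76 values recomputed for 12 results under 10 alternatives, 57 stayed within 1.5 times the reported value (counts) or within its 95% interval (medians and shares) and 19 did not. With peaks shorter than the median of the list left out, 324 peaks in 62 genes were left, with median lengths of 200 bases in lncRNA and 200 in protein-coding genes, median spacings of 620.5 and 706 bases, 97.6% on the gene strand and 88.0% over 10 kb from a bound protein-coding gene. With peaks within 50 bases merged, the lengths were 161 and 159 and the spacings 600.0 and 644 bases. Without predicted genes, 61 genes were left and 97.0% of peaks were on the gene strand. With at least 3 peaks per gene, 35 genes were left. A further pair of alternatives was chosen after seeing the data. Without the 10 genes with the most peaks, 227 peaks were left, with a spacing of 525 bases and 87.0% on the gene strand. With neighbours held to the stricter definition (a peak in no other gene, and the strand of the peak where known), 94.1% were over 10 kb away. The lower counts follow from leaving out peaks or genes; for the other shifts the cause was not tested. No paired analysis was possible because the single peak list has no value for each library. Depth is unknown, so its limit on genes without a peak could not be set.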
